A study of Mus musculus with 9 samples.

Results

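Claudins are membrane proteins of the tight junction, the belt of contacts that seals the space between neighbouring epithelial cells. Some, such as the products of Cldn2 and Cldn15, form pores that let small cations pass between cells, and others, such as those of Cldn3, Cldn4 and Cldn8, are known mainly as sealing members. Occludin, the Marvel domain proteins and the junctional adhesion molecules lie in the same belt, which zonula occludens proteins (Tjp genes) and cingulins tie to the cytoskeleton. Below it, cadherins and catenins form the adherens junction, and desmogleins, desmocollins, desmoplakin and plakophilins form the desmosomes.

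The genes described here are 40 claudin and epithelial junction genes, chosen by symbol and not by value: all numbered claudins and Tjp genes (Tjp1 and Tjp3) with a probe set of a single symbol, plus 18 named partners. They have 81 of the 34945 probe sets with 1 symbol, and 40 of the 18193 genes. After a filter on low values that ignores the groups, 32 of the 40 genes were tested through 59 probe sets. The members are 20 claudins, 10 other tight junction genes, 5 genes of cadherins, catenins and Epcam, and 5 desmosome genes. The 8 genes that did not pass are all claudins and are described at the end.

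Affymetrix mouse arrays were hybridized with total RNA from the small intestine of male mice aged 6 to 8 weeks, 1 mouse to an array and 9 arrays in all. Control jejunum (n = 3) and control ileum (n = 3) were taken from different mice of genotype Gata4loxP/+VilCre. Mutant jejunum (n = 3) came from Gata4loxP/-VilCre mice. In every group a loxP-flanked copy of Gata4, a transcription factor of the proximal intestine, thus met Cre made under the villin promoter, which is active in the intestinal epithelium; the second copy was wild type in controls and null in mutants. The jejunal site lay 10 cm beyond the pylorus, and the ileal site 1 cm before the cecum. The sources used here do not say whether whole wall or mucosa was taken. In such bulk RNA, fewer cells of a type and less RNA per cell cannot be told apart.

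Levels are quantile-normalized log2(intensity + 16), on which an intensity of 0 would give 4, and differences are between group means on that scale with their standard error (SE). A gene is called when limma's adjusted p over all 29307 probe sets tested is under 0.05. The ileum arrays were the dimmest before normalization, with trimmed mean intensities of 96.8 to 122 against 150 to 172 in control and 147 to 180 in mutant jejunum. Mutant jejunum 3 had the lowest array weight (0.384). The brighter Gata4 probe set read 9.57, 9.49, 9.52 (control jejunum), 9.61, 9.51, 9.38 (mutant jejunum) and 5.64, 5.30, 5.20 (control ileum). The dimmer one read 8.07, 7.30, 7.34 (control jejunum), 8.47, 8.29, 7.91 (mutant jejunum) and 4.90, 4.59, 4.26 (control ileum). Its difference between mutant and control jejunum was 0.65 (SE 0.24, adjusted p = 0.195) and was not called. The place of both probe sets relative to the deleted part is unknown here, so neither checks the deletion. The epithelial markers Vil1 (12.83 ± 0.17 in mutant and 12.94 ± 0.04 in control jejunum, SD, n = 3) and Krt20 were bright on all arrays, as fits an intestinal sample.

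The promoters of the claudins that the results turn on are shown first. Cldn2 and Cldn15 are the members called in the mutant, and Cldn3 and Cldn4 are direct neighbours on their chromosome, of which Cldn3 but not Cldn4 was called in ileum. Each window runs 5′ to 3′ on the gene's strand from 250 bases before to 50 bases after the RefSeq start (GRCm38.p6). Capitals mark matches on either strand to a GATA motif, whose forms here are AGATAA and also AGATAG, as well as TGATAA and lastly TGATAG. They also mark CAAAG on either strand, which is only part of an HNF4 site, and a CDX motif, which is TTTAT likewise. None of the matches in these windows overlap each other.
Cldn2, chrX:139800558-139800857, strand +: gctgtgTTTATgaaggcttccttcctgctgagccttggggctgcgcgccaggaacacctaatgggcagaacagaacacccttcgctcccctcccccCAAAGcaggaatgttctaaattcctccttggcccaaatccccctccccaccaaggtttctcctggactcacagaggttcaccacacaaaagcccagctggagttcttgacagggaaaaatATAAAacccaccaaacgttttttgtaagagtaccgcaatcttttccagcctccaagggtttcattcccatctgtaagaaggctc
Cldn15, chr5:136967619-136967918, strand +: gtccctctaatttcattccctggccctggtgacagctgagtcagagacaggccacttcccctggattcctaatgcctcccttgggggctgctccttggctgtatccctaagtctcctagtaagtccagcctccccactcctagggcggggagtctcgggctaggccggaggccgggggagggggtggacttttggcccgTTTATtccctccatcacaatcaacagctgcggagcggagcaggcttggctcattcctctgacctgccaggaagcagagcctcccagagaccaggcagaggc
Cldn3, chr5:134985964-134986263, strand +: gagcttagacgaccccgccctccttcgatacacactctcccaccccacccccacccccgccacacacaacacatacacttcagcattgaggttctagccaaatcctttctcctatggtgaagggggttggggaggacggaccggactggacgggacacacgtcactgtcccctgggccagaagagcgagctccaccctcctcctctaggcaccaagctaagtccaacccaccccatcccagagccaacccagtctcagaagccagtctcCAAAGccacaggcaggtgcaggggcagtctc
Cldn4, chr5:134946885-134947184, strand -: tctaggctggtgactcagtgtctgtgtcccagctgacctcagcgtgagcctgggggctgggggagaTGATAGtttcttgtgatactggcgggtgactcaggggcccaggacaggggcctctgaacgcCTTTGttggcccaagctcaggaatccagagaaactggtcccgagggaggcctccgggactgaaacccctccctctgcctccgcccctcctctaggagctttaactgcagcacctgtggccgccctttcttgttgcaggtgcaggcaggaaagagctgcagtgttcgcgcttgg

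Of these windows only that of Cldn4 held a GATA motif, TGATAG, starting 184 bases before the start. Cldn2 had TTTAT on the same strand 244 bases before the start, CAAAG 154 bases before it, and TTTAT on the other strand 34 bases before it, inside the letters TATAAA that are also those of a TATA box. Cldn15 had TTTAT 51 bases before the start. Windows were found for 27 of the 40 genes. A GATA motif was present for 10 of the 27 (37.0%), against 33.0% of all 27025 genes in the table. The motif CAAAG was present for 15 (55.6%, against 57.4%) and TTTAT for 13 (48.1%, against 43.8%). A match describes letters only, and these shares were close to those of all genes.

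Mutant against control jejunum shows how junction transcripts differed when the second copy of Gata4 was null. Cldn2 was higher in mutant jejunum, Cldn15 was lower, and no other of the 32 tested members was called. The members called higher were thus 1 of 32, where 2.10% of all 13830 tested genes were called higher, and the members called lower were 1 of 32, where 2.29% were, so the number of calls was near that of all genes. At an unadjusted limma p under 0.05, 7 of 32 members were higher (21.9%, against 8.83% of all genes) and 1 was lower (3.12%, against 9.46%). The 7 include Cldn8, which had no control jejunum array above the filter level and was tested only because the other groups were higher. The median difference was 0.13 over the members and 0.00 over all tested genes, and 68.8% of the members lay above 0, against 50.1% of all genes. In 8 members all mutant arrays lay above all control jejunum arrays (12.2% of all genes) and in 1 they lay below (12.8%). The 8 also include Cldn8, for which the filter favoured such a separation.

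**Figure D1:**
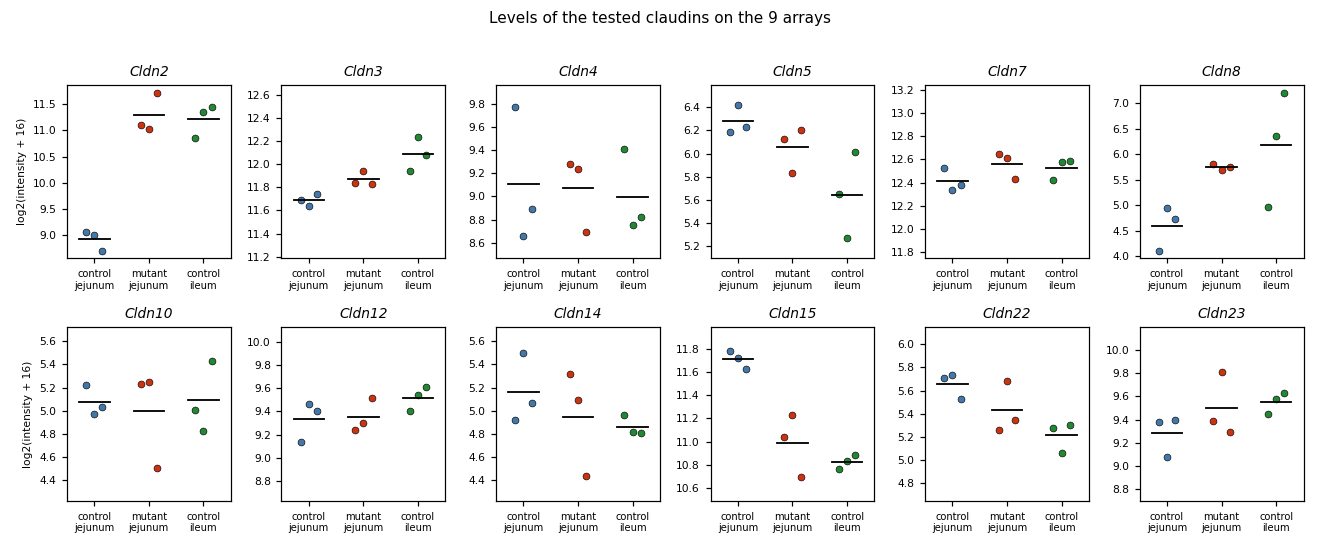
Level of each tested claudin on each array as log2(intensity + 16), one panel per gene with its own vertical scale, 3 arrays per group as points and the group mean as a bar. Cldn2 rises from 8.93 in control jejunum to 11.28 in mutant jejunum, Cldn15 goes from 11.71 to 10.99, and the Cldn8 points in control ileum are spread from 4.97 to 7.21.

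Cldn2 encodes the pore-forming claudin that makes tight junctions permeable to small cations and water. Its brighter probe set, 1417231_at, read 9.07, 9.0, 8.71 (control jejunum), 11.10, 11.03, 11.72 (mutant jejunum) and 10.85, 11.35, 11.45 (control ileum). Every mutant and every ileal array lay above every control jejunum array, and the mutant and ileal arrays overlapped. The mutant rose by 2.36 (SE 0.20, a 5.12-fold change; adjusted p = 0.000126). The dimmer probe set, 1417232_at, read 7.13, 6.89, 6.79 (control jejunum), 9.44, 9.13, 9.81 (mutant jejunum) and 9.10, 9.51, 9.82 (control ileum). It rose by 2.52 in the mutant (SE 0.21, adjusted p = 0.000105), so both probe sets of the gene showed the same change. Control ileum exceeded control jejunum by 2.29 (SE 0.20, adjusted p = 4.22e-05). Between mutant jejunum and control ileum the difference was 0.07 (95% interval -0.38 to 0.52, adjusted p = 0.912), which leaves room for a difference of either sign within that interval. Without mutant jejunum 3 the mutant rise was 2.14 (adjusted p = 0.000246).

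Cldn15 encodes the other main cation pore of the small intestine, which returns sodium to the lumen for sodium-coupled nutrient uptake. Its probe set, 1418920_at, read 11.78, 11.72, 11.63 (control jejunum), 11.04, 11.23, 10.69 (mutant jejunum) and 10.76, 10.83, 10.88 (control ileum). All mutant and ileal arrays were below all control jejunum arrays, and mutant jejunum 3 was the lowest of the 9. The mutant fell by 0.72 (SE 0.13, a 1.65-fold decrease; adjusted p = 0.0122) and control ileum differed from control jejunum by -0.88 (SE 0.13, adjusted p = 0.00112). The mutant and ileal levels differed by 0.16 (95% interval -0.13 to 0.45, adjusted p = 0.595). The fall in the mutant was -0.58 without mutant jejunum 3 (adjusted p = 0.0129). The call did not survive removal of control jejunum 2 (-0.72, adjusted p = 0.0568). It was also lost with no scaling between arrays (-0.66, adjusted p = 0.153) and with median centring (-0.61, adjusted p = 0.105), and the direction stayed down under each of these.

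Cldn8, a sealing claudin best known from the distal gut and kidney, was dim in jejunum. It read 4.11, 4.95, 4.72 (control jejunum), 5.80, 5.69, 5.75 (mutant jejunum) and 4.97, 6.35, 7.21 (control ileum). The mutant arrays were tightly grouped and all above control jejunum, whereas the ileal arrays were spread widely, the lowest of them barely above the highest control jejunum array. The mutant difference of 1.15 (SE 0.44, adjusted p = 0.211) was not called, though it became so when the 2 groups were fitted by themselves (adjusted p = 0.0371) and on removal of control ileum 1 (1.18, adjusted p = 0.0427). Ileum exceeded jejunum by 1.58 (SE 0.44, adjusted p = 0.0332), but this call did not survive removal of control jejunum 1, 2 or 3 (adjusted p = 0.102, 0.0566 and 0.0757), nor that of control ileum 2 or 3 (adjusted p = 0.0963 and 0.0939; 1.08 without the latter). Without control ileum 1 the ileal value was 2.23 (adjusted p = 0.00130). The call was also lost with no filter (adjusted p = 0.0561) and when the 2 groups were fitted by themselves (adjusted p = 0.0568). No control jejunum array was above the filter level, so Cldn8 was tested only because the other groups were higher, and its calls are not counted as support. The size also depended on the pseudocount: with 1 and with 64 in place of 16, the ileal difference was 2.83 and 0.80 and the mutant one 2.39 and 0.49.

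Cldn3, a sealing claudin of most gut epithelia, was measured by 4 probe sets. The one standing for the gene, 1460569_x_at, read 11.69, 11.64, 11.74 (control jejunum), 11.84, 11.94, 11.83 (mutant jejunum) and 11.94, 12.23, 12.08 (control ileum). The groups were ordered control jejunum, mutant jejunum, control ileum by their means, with no overlap between mutant and control jejunum. The mutant difference was 0.18 (SE 0.09, adjusted p = 0.376) and lay between 0.18 and 0.36 over the 4 probe sets, none of them called. Ileum exceeded jejunum by 0.39 (SE 0.09, adjusted p = 0.0169), and all 4 probe sets were called there, with differences from 0.37 to 0.67. The call of the first did not survive removal of control jejunum 2 (adjusted p = 0.0669), nor that of the second ileal array (adjusted p = 0.0725). Cldn4, the neighbouring gene and also a sealing claudin, read 9.77, 8.66, 8.89 (control jejunum), 9.28, 9.24, 8.69 (mutant jejunum) and 9.41, 8.75, 8.82 (control ileum). The groups overlapped fully (mutant difference -0.04, SE 0.28, adjusted p = 0.972; ileal difference -0.11, adjusted p = 0.827).

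Cldn7, a claudin of the basolateral membrane that binds the Epcam product, read 12.53, 12.34, 12.38 (control jejunum), 12.65, 12.61, 12.43 (mutant jejunum) and 12.42, 12.58, 12.59 (control ileum). It was called in neither comparison with control jejunum (0.14, SE 0.09, adjusted p = 0.484 in the mutant; 0.11, adjusted p = 0.461 in ileum). The interval of its mutant difference ran from -0.06 to 0.35.

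Cldn5, the claudin of endothelial tight junctions, read 6.19, 6.42, 6.23 (control jejunum), 6.13, 5.83, 6.20 (mutant jejunum) and 5.65, 5.27, 6.01 (control ileum). Its ileal difference of -0.63 (SE 0.20, adjusted p = 0.0496) sat at the threshold. Its call did not survive removal of control jejunum 1, 2 or 3 (adjusted p = 0.0783, 0.149 and 0.104). The same was true of 2 mutant arrays, replicates 1 and 2 (adjusted p = 0.0636 and 0.0552), and of control ileum 1 and 2 (adjusted p = 0.102 and 0.166). The Cldn5 call was also lost with trimmed mean scaling, a pseudocount of 1 and no filter (adjusted p = 0.0674, 0.0529 and 0.0912). No intensity trend and the 2 groups fitted by themselves ended it too (adjusted p = 0.0519 and 0.0608). It was kept in 8 of 21 alternatives. Of 9 endothelial markers 1 was called lower in ileum and none higher, with a median difference of -0.35; the mean level of the list was 6.12 to 6.31 on control jejunum, 5.84 to 6.61 on mutant and 5.76 to 5.78 on ileal arrays, and its part in the Cldn5 difference was not tested. The tested claudins Cldn10, Cldn12, Cldn14, Cldn22 and Cldn23 were called in no comparison, with mutant differences from -0.23 (Cldn22) to 0.21 (Cldn23). Among them Cldn22 had the largest ileal difference (-0.44, SE 0.17, adjusted p = 0.0956), with all 3 ileal arrays below control jejunum; with no scaling it was called (-0.80, adjusted p = 0.00659). Cldn10 and Cldn14 were close to the filter level of 4.95 in all groups.

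**Figure D2:**
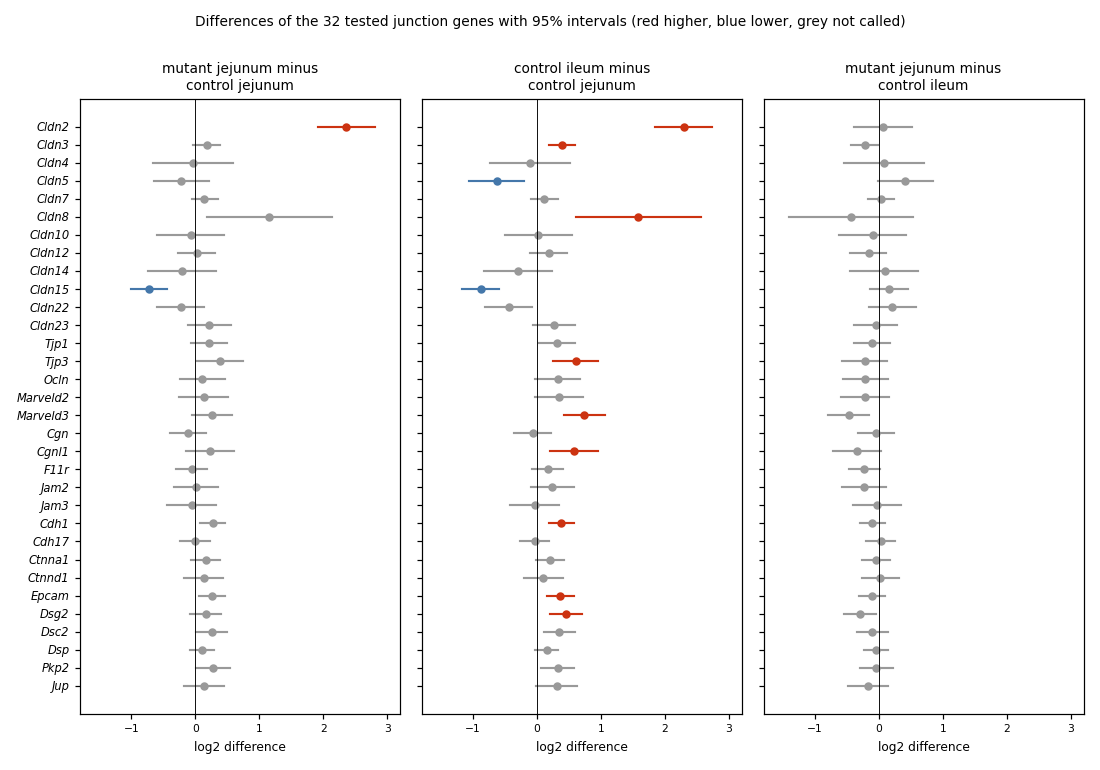
Difference of each tested member in the 3 comparisons on the log2 scale, with points at the estimate, bars for the 95% interval of that gene alone, red for genes called higher, blue for genes called lower and grey for those not called. Cldn2 (2.36) and Cldn15 (-0.72) are the coloured points in the mutant panel, the ileal panel has 9 red and 2 blue points, and the panel of mutant jejunum against control ileum has none.

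None of the 10 other tight junction genes was called in mutant against control jejunum. Their differences ran from -0.12 (Cgn) to 0.38 (Tjp3), with a median of 0.12, and 1 of 10 was higher at an unadjusted limma p under 0.05 (8.83% of all genes). Ocln, which encodes occludin, read 9.75, 9.56, 9.48 (control jejunum), 9.94, 9.85, 9.35 (mutant jejunum) and 9.98, 10.00, 9.78 (control ileum). The mutant arrays spanned those of control jejunum (difference 0.11, SE 0.16, adjusted p = 0.784), and the ileal arrays were above them (0.32, adjusted p = 0.193). Marveld2, the tricellulin gene of contacts between more than a pair of cells, is the chromosomal neighbour of Ocln and was likewise not called (0.13, adjusted p = 0.763, and 0.34, adjusted p = 0.202). Tjp1, the gene of zonula occludens protein ZO-1, read 9.86, 9.68, 9.65 (control jejunum), 9.76, 10.04, 10.02 (mutant jejunum) and 10.16, 10.11, 9.86 (control ileum). Its groups overlapped, with a mutant difference of 0.21 (SE 0.13, adjusted p = 0.456) and an ileal one of 0.31 (adjusted p = 0.120).

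In ileum 3 of these 10 were called higher than in control jejunum (8.79% of all genes) and none lower (9.12%). Marveld3, a further relative of occludin, read 9.02, 8.64, 8.62 (control jejunum), 8.90, 8.98, 9.19 (mutant jejunum) and 9.55, 9.60, 9.35 (control ileum). All ileal arrays exceeded all others, and the ileal difference of 0.74 (SE 0.14, adjusted p = 0.00605) kept its call without any single array. Its second tested probe set gave 0.25 and was not called (adjusted p = 0.208). Tjp3, the gene of ZO-3, read 8.91, 9.23, 8.76 (control jejunum), 9.22, 9.48, 9.35 (mutant jejunum) and 9.33, 9.57, 9.82 (control ileum). Its ileal difference was 0.61 (SE 0.16, adjusted p = 0.0270). Removal of control jejunum 1 or 3 (adjusted p = 0.0723 and 0.104), or of control ileum 2 or 3 (adjusted p = 0.0726 and 0.0926), ended this call. Cgnl1, the paracingulin gene, read 5.34, 5.01, 5.09 (control jejunum), 5.15, 5.56, 5.42 (mutant jejunum) and 5.87, 5.62, 5.67 (control ileum). Its ileal difference of 0.57 (SE 0.17, adjusted p = 0.0434) was lost with many arrays left out: removal of control jejunum 2 or 3 (adjusted p = 0.135 and 0.118), of mutant jejunum 2 (adjusted p = 0.0511), or of any ileal array (adjusted p = 0.127, 0.0777 and 0.0839) ended it. It was also lost with the mean of the gene's tested probe sets (0.21, adjusted p = 0.548). The second tested probe set of Cgnl1 differed by -0.15 in ileum (adjusted p = 0.774). F11r, Jam2 and Jam3, the junctional adhesion molecules, and Cgn were called in neither comparison, with ileal differences from -0.07 to 0.24.

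**Figure D3:**
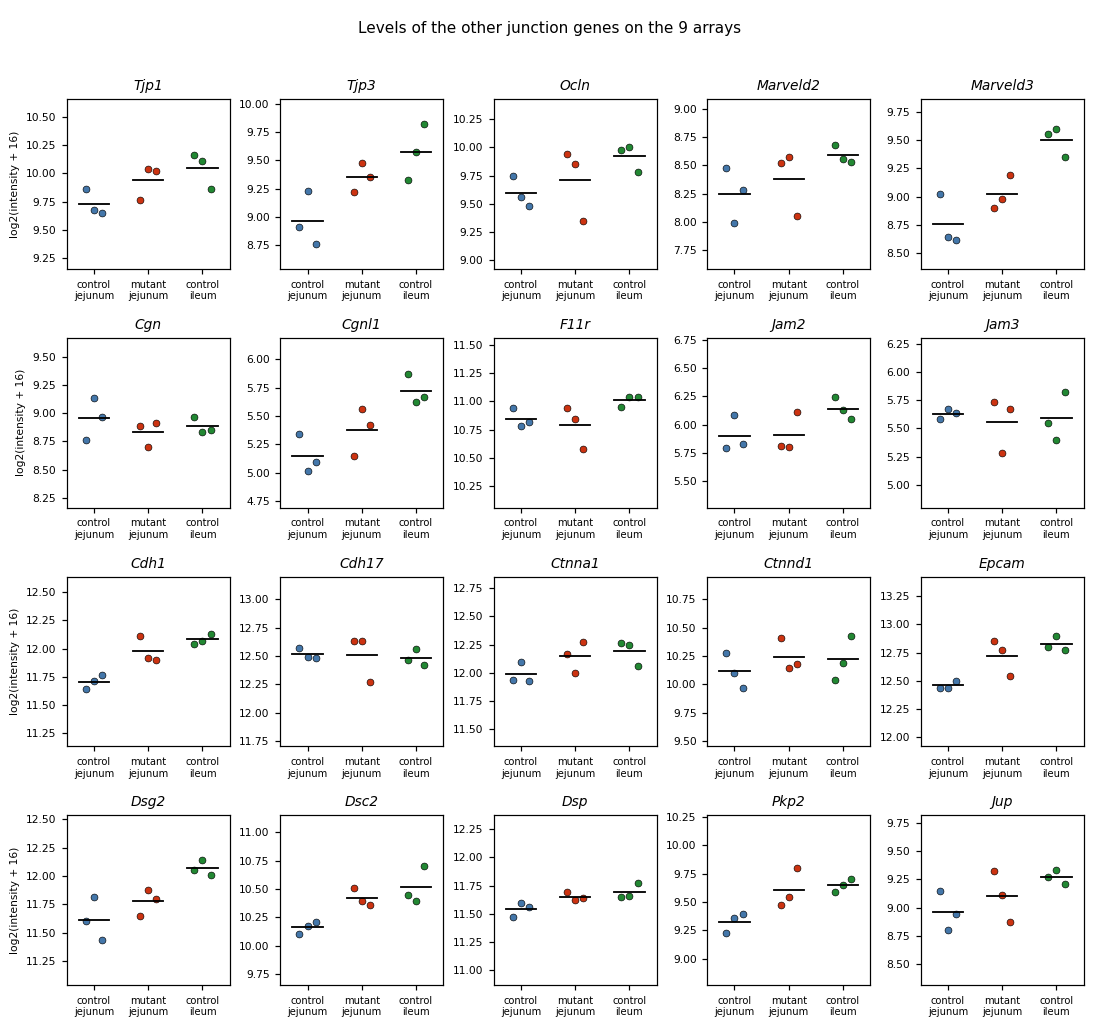
Level of each of the 20 junction genes that are not claudins on each array as log2(intensity + 16), one panel per gene with its own vertical scale, 3 arrays per group as points and the group mean as a bar. The Marveld3 points of control ileum, from 9.35 to 9.60, lie above all jejunal points, whereas those of Cdh17 lie within 12.27 to 12.63 in all groups.

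Cdh1, the gene of E-cadherin, read 11.64, 11.71, 11.77 (control jejunum), 12.11, 11.92, 11.90 (mutant jejunum) and 12.04, 12.07, 12.13 (control ileum). All mutant and all ileal arrays lay above control jejunum. The mutant difference of 0.27 (SE 0.09, adjusted p = 0.137) was not called. The ileal one of 0.38 (SE 0.09, adjusted p = 0.0154) was called, but not on removal of control jejunum 1 or 2 (adjusted p = 0.0547 and 0.0510), or of control ileum 3 (adjusted p = 0.0504). Epcam, which encodes an adhesion molecule of all intestinal epithelial cells, read 12.44, 12.44, 12.50 (control jejunum), 12.85, 12.77, 12.54 (mutant jejunum) and 12.80, 12.90, 12.77 (control ileum). Here too the control jejunum arrays were the lowest, and mutant jejunum 3 was the closest to them. Its mutant difference was 0.26 (SE 0.09, adjusted p = 0.178) and passed the threshold on removal of mutant jejunum 3 (0.34, adjusted p = 0.0421) and with array weights (0.30, adjusted p = 0.0365). Its ileal difference was 0.36 (SE 0.09, adjusted p = 0.0220), but not past the threshold on removal of any control jejunum array (adjusted p = 0.0592, 0.0723 and 0.0528) or of control ileum 2 (adjusted p = 0.0859). The second Epcam probe set gave 0.08 in ileum and was not called (adjusted p = 0.780).

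Cdh17, the liver-intestine cadherin, read 12.57, 12.49, 12.48 (control jejunum), 12.63, 12.63, 12.27 (mutant jejunum) and 12.46, 12.56, 12.42 (control ileum). The groups overlapped, with differences of -0.01 (95% interval -0.24 to 0.23) in the mutant and -0.04 (-0.27 to 0.19) in ileum. The catenin genes Ctnna1 and Ctnnd1 were called in neither comparison (0.16 and 0.13 in the mutant, 0.20 and 0.10 in ileum). Beside Cdh1 and Epcam, 8 general epithelial markers had a mean level of 12.19 to 12.23 on control jejunum, 12.32 to 12.38 on mutant and 12.39 to 12.45 on ileal arrays. Of these 8, 2 were called higher in the mutant and none lower, and 3 were called higher and 1 lower in ileum. Their part in the small differences of Cdh1 and Epcam was not tested.

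No desmosome gene was called in the mutant through the probe set standing for it, with differences from 0.11 (Dsp) to 0.28 (Pkp2) and 2 of 5 higher at an unadjusted limma p under 0.05 (8.83% of all genes). Dsg2, the desmoglein of simple epithelia, read 11.60, 11.81, 11.43 (control jejunum), 11.65, 11.88, 11.80 (mutant jejunum) and 12.05, 12.14, 12.01 (control ileum). Its ileal arrays were above all jejunal arrays, by 0.45 over control jejunum (SE 0.11, adjusted p = 0.0188). On removal of control jejunum 1 or 3 (adjusted p = 0.0523 and 0.0781), or of control ileum 2 (adjusted p = 0.0683), it was no longer called. Of its 6 probe sets 5 were called higher in ileum, by 0.45 to 1.11, and none was called in the mutant. Dsc2, the desmocollin that pairs with it, differed between its probe sets. The brighter one read 10.10, 10.17, 10.21 (control jejunum), 10.51, 10.39, 10.36 (mutant jejunum) and 10.45, 10.39, 10.70 (control ileum), and was called in neither comparison (0.26, adjusted p = 0.274, and 0.35, adjusted p = 0.0532). The dimmer one, 1421156_a_at, read 9.28, 8.85, 9.03 (control jejunum), 9.88, 9.72, 9.50 (mutant jejunum) and 9.59, 9.76, 9.91 (control ileum). It was called higher in the mutant (0.65, SE 0.15, adjusted p = 0.0413) and in ileum (0.70, adjusted p = 0.00978), so the call for this gene depends on the probe set. Dsp, the desmoplakin gene, likewise was not called in ileum through its brightest probe set (0.15, adjusted p = 0.277) but was through its dimmest (1.13, adjusted p = 0.00783). Pkp2, of plakophilin 2, and Jup, of plakoglobin, were not called in ileum (0.32 and 0.31).

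Control ileum against control jejunum shows how the same genes differ along the small intestine of control mice. In all, 9 of 32 members were called higher, where 8.79% of all genes were, and 2 were called lower, where 9.12% were. The 9 were Cldn2, Cldn8, Cldn3, Marveld3, Tjp3, Cgnl1, Cdh1, Epcam and Dsg2, and the 2 were Cldn15 and Cldn5. Of the 9, only Cldn2 and Cldn8 differed by at least 1 on the log2 scale, and Cldn8 passed the filter only through the groups where it was higher. In 17 members, Cldn8 among them, all ileal arrays lay above control jejunum (21.2% of all genes) and in 3 they lay below (18.9%). The median difference was 0.25 over the members and 0.03 over all tested genes.

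The small ileal rises depended on how the arrays were scaled. With no scaling, the median of all tested probe sets itself was at -0.40 in ileum, and the counts changed from 9 higher and 2 lower to 2 higher (Cldn2 and Cldn8) and 5 lower. With median centring they were 3 higher and 2 lower, and with trimmed mean scaling 8 higher and 1 lower. Shares of all genes called under these scalings are not given here. Cldn3, Cdh1, Epcam and Dsg2 went from 0.39, 0.38, 0.36 and 0.45 to -0.12, -0.14, -0.06 and -0.06 with no scaling, none of these called, while Marveld3 (0.20), Tjp3 (0.06) and Cgnl1 (0.20) stayed above 0 without a call. Cldn2 (1.74 to 2.29) and Cldn15 (-1.43 to -0.88) kept direction and call under all 4 scalings. Cldn8 (1.29 to 1.65) did so too, but passed the filter only through the groups where it was higher. Its call was lost with no filter (adjusted p = 0.0561). The count of 9 also fell to 4 without control jejunum 1, 2 or 3, to 3 without control ileum 2 and to 5 without control ileum 3. Cell type markers moved between the segments as well. Of 7 smooth muscle markers 4 were higher in ileum. Of 5 enteric neuron and glia markers 2 were called higher, Elavl4 (0.90) and Uchl1 (0.67). The others, Sox10 (-0.84), Gfap (-0.49) and S100b (-0.08), lay below 0 without a call. Of 6 lymphocyte and myeloid markers 3 were lower, and 2 of 3 Paneth and 2 of 4 goblet cell markers were higher. Their part in the junction differences was not tested.

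**Figure D4:**
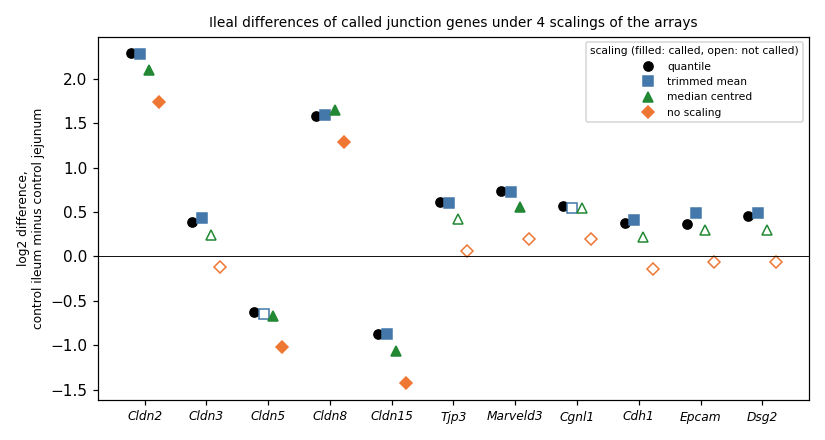
Ileal minus jejunal difference on the log2 scale for the 11 members called between control segments, under quantile normalization and 3 other scalings of the arrays; filled symbols were called and open ones were not. Cldn2, Cldn8 and Cldn15 are filled throughout, while Cldn3, Cdh1, Epcam and Dsg2 fall just below 0 with no scaling.

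Between mutant jejunum and control ileum no member was called in limma, higher (1.97% of all genes) or lower (1.70%). At an unadjusted p under 0.05 there were 0 higher (9.38% of all genes) and 3 lower (9.65%), namely Cldn3 (-0.22), Dsg2 (-0.29) and Marveld3 (-0.47, 95% interval -0.79 to -0.16). No member had all mutant arrays above ileum (10.8% of all genes), and 4 had them below (11.8%). Marveld3 was called lower with array weights (-0.54, adjusted p = 0.0346). With no scaling, which raises the median of all probe sets to 0.41, 12 members were called higher in the mutant. The share of all genes called under that setting is not given here.

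The remaining genes of the same structures were taken from a list of polarity, scaffold, adhesion and gap junction genes, 48 of 52 of which were tested. In mutant against control jejunum 5 were called higher and none lower, where 2.10% of all genes were called higher and 2.29% lower. The 5 include Ildr1, which passed the filter only through the groups where it was higher. At an unadjusted p under 0.05, 8 of the 48, again with Ildr1 among them, were higher (8.83% of all genes) and 5 lower (9.46%). Cd9, a tetraspanin that associates with Epcam, read 8.59, 8.74, 8.58 (control jejunum), 9.73, 9.98, 10.21 (mutant jejunum) and 10.89, 10.91, 10.71 (control ileum). The 3 groups did not overlap; the mutant was 1.34 above control jejunum (adjusted p = 0.000327) and 0.86 below ileum on the log2 scale (log2 difference -0.86, adjusted p = 0.00991). Tspan8, a related tetraspanin, rose by 0.84 (adjusted p = 0.00177) and was also lower than in ileum (-0.52, adjusted p = 0.0338). Ildr1, an angulin of tricellular contacts, went from 4.69, 4.18 and 4.37, near the bottom of the scale, to 5.93, 5.30 and 5.94 in the mutant and was at 5.37, 6.03 and 6.10 in ileum (mutant difference 1.31, adjusted p = 0.0172; 0.0331 with no filter). No control jejunum array of Ildr1 was above the filter level, so it was tested only because the other groups were higher, and its call is not counted as support. Cxadr, the adhesion molecule that also serves as virus receptor, rose by 0.68 (adjusted p = 0.0212), and Pdlim1, an actin-associated scaffold, by 0.69 (adjusted p = 0.00303) through its brightest probe set. A dimmer probe set of Pdlim1 went the other way (-1.27, adjusted p = 0.0149), so its direction depends on the probe set. Cd9, Tspan8, Cxadr and Pdlim1 were also called with no filter on low values, a check chosen after seeing the data. The other settings were not run for these genes or for Ildr1. In ileum against jejunum 14 of the 48, Ildr1 among them, were called higher (8.79% of all genes) and 1, the polarity gene Pard6b (-0.50), lower (9.12%). Between mutant jejunum and ileum none was called higher and 3 were called lower (1.70% of all genes): Cd9, Tspan8 and Mylk (-1.02, adjusted p = 0.00859), the gene of a myosin light chain kinase that smooth muscle also holds.

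The 8 claudins that did not pass the filter were Cldn1, Cldn6, Cldn9, Cldn11, Cldn13, Cldn16, Cldn18 and Cldn19. Their 13 probe sets lay between 4.01 and 5.25 on all arrays, close to the bottom of the scale, where the scale compresses differences. With no filter, none was called in the mutant or between control segments. Cldn19 read 4.60, 4.23, 4.39 (control jejunum), 4.13, 4.17, 4.16 (mutant jejunum) and 5.05, 4.67, 4.92 (control ileum), and was called lower in mutant jejunum than in ileum with no filter (-0.72, adjusted p = 0.0399).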

How the data were processed

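The values the authors deposited are linear intensities, made with GCOS (the Affymetrix expression software) per the submitters' processing notes. Its version and settings, and any scan batch, were not given in the sources used here. Groups follow the sample titles, and the mice are separate per the series' design text. The arrays hold 45101 probe sets; the 64 controls among them were dropped. Values were turned into log2(intensity + 16) and quantile normalized, so a shift of all transcripts would not be seen, and changes of dim probe sets are understated. Probe sets above the 40th percentile (4.95) on at least 3 of 9 arrays were tested. limma 3.58.1 (R 4.3.3) was fitted on all arrays with 3 contrasts and an intensity trend, with Benjamini-Hochberg adjustment over all probe sets; the script was tested on simulated data. Intervals are 95% and unadjusted. A gene's tested probe set with the highest mean stands for it. Gene names come from GEO's platform annotation; probe sets whose names end in x_at or s_at can match several transcripts. Promoter sequences are from RefSeq (GRCm38.p6). Values per array are given for members called in any comparison and for 11 members listed by name whatever their call; other probe sets are given where calls differ. The members and lists were chosen with earlier results of these data known. Alternatives covered scaling, pseudocount, filter, trend, array weights, fit, replicate block, probe set choice, fold and each array left out. No column of values was left unmapped.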

Additional observations from a re-analysis of the deposited data

How the results depend on the processing

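Cldn2 kept its call in mutant and in ileum against control jejunum under all 21 alternatives (2.14 to 2.47 and 1.74 to 2.47). Cldn15 kept its direction in both comparisons, with 18 and 21 of 21 called. These 21 leave out the request for at least 1 on the log2 scale, under which Cldn15 was called in neither comparison. With no scaling between arrays the members called were 0 lower in the mutant, 2 higher and 5 lower in ileum, and 12 higher in mutant jejunum than in ileum. The differences of Cdh1 (-0.14), Cldn3 (-0.12), Dsg2 (-0.06) and Epcam (-0.06) in ileum reversed there, as did those of Cgn (0.51), Ctnna1 (0.56), Dsc2 (0.55), Dsp (0.57), Pkp2 (0.56) and Tjp1 (0.50) between mutant jejunum and ileum; the shift of all probe sets named above moves with this setting. Arrays centred on their medians gave 0 lower in the mutant and 3 higher in ileum. In ileum, 1 was lower with trimmed mean scaling, a pseudocount of 1, no filter on low values, no mean-variance trend in limma, or the 2 groups fitted by themselves, and 5 were higher without that trend. Array weights, and fitting the 2 groups by themselves, each gave 2 higher in the mutant. No filter and array weights each gave 1 lower in mutant jejunum than in ileum. Asking for at least 1 on the log2 scale left 0 lower in the mutant and 2 higher and 0 lower in ileum. The cause of these changes was not tested, and shares of all genes called under each setting are not given here. Leaving out 1 array at a time gave 1 to 2 higher and 0 to 1 lower in the mutant, and 3 to 11 higher and 1 to 2 lower in ileum. The replicate numbers of the labels pair no animals, and same-numbered arrays deviated together with r from -0.07 to 0.17; with the replicate block 8 members were higher and 1 lower in ileum, since Cgnl1 (adjusted p = 0.0705) and Cldn5 (adjusted p = 0.0539) were no longer called, and no call changed in the other comparisons. Signal near background limits the dim claudins, and 3 arrays per group limit every value.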
